A study of Caenorhabditis elegans with 6 samples.

Results

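The genes described here are 10 collagen genes of Caenorhabditis elegans that shape the body and that lie outside the furrow group: dpy-4, dpy-5, dpy-13, dpy-17, rol-1, rol-6, sqt-1, sqt-2, sqt-3 and lon-3. They were chosen by gene symbol, and all 10 were found among the 20473 genes of the deposited table. All 10 carry the deposited annotation of a structural constituent of the cuticle. The deposited descriptions call 6 of them cuticle collagens and give the other 4 (dpy-4, dpy-17, rol-1 and sqt-2) only by phenotype name. Markers of epidermis, seam, intestine, body muscle, pharynx, neurons, sperm, oocytes, embryos and yolk that the table lists all had counts, as in whole worms.

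The cuticle of C. elegans is an extracellular matrix made by the epidermis and rebuilt at each molt. Its main proteins are small collagens that assemble as trimers, are trimmed by proteases and are then crosslinked. The genes were named from mutants: dumpy (dpy) worms are short and fat, roller (rol) worms are helically twisted and turn as they crawl, squat (sqt) worms are short or roll depending on the allele, and long (lon) worms are elongated. Collagens of a separate group, including DPY-7, form the circumferential furrows.

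The samples were whole N2 worms, a wild-type strain, kept at 20 °C for 72 h with diquat dibromide monohydrate, a redox-cycling bipyridyl herbicide, at 0 µg/L (control) or 100 µg/L (diquat). Each group had 3 libraries of poly(A)-selected RNA, numbered 1 to 3 in the labels. The sources used here give neither the stage of the worms at the start nor whether replicates were separate cultures, so the p-values reflect the spread of these samples alone, which may be technical. Total counts were 23390547 to 24593469 per library. Levels in CPM, the count scaled to a common library size, took the library total times its TMM factor as that size, and levels compared between genes are the deposited FPKM, which also divides by gene length.

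The comparison asks which of these transcripts 100 µg/L of diquat altered relative to no diquat. rol-1 was the 1 body-shape collagen that passed the test, at about 34% of its control level. The dumpy collagens dpy-5, dpy-13 and dpy-4 had lower means with diquat and were called lower only when same-numbered libraries were compared with each other. The labels do not say that equal numbers mark pairs. With group alone, the intervals of the most abundant, sqt-3 and dpy-17, included no change. Compared by library number, their intervals lay below no change, and neither gene passed the test. The means of rol-6, sqt-1 and sqt-2 were higher with diquat, by amounts that did not pass the test. Thus 1 of the 10 fell and 0 rose (edgeR's quasi-likelihood test, Benjamini-Hochberg (BH) adjusted p under 0.05), against 0.913% of 13252 tested genes called lower and 0.0% called higher. With the replicate number as a block 4 fell and 0 rose, against 4.0% and 4.51% of all tested genes. With the block and each library's trend with gene length removed, 4 fell and 1 rose, against 6.2% and 3.4%. DESeq2 and limma-voom called 1 lower and 0 higher as well, and at an unadjusted p under 0.05 edgeR had 2 of the 10 lower, rol-1 and dpy-5, against 4.68% of all tested genes, and 0 higher. Over all genes, 204 were higher at an unadjusted p under 0.05. Of the 13252 tested genes DESeq2 called 167 lower and limma-voom 118, and both called 0 higher.

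**Figure D1:**
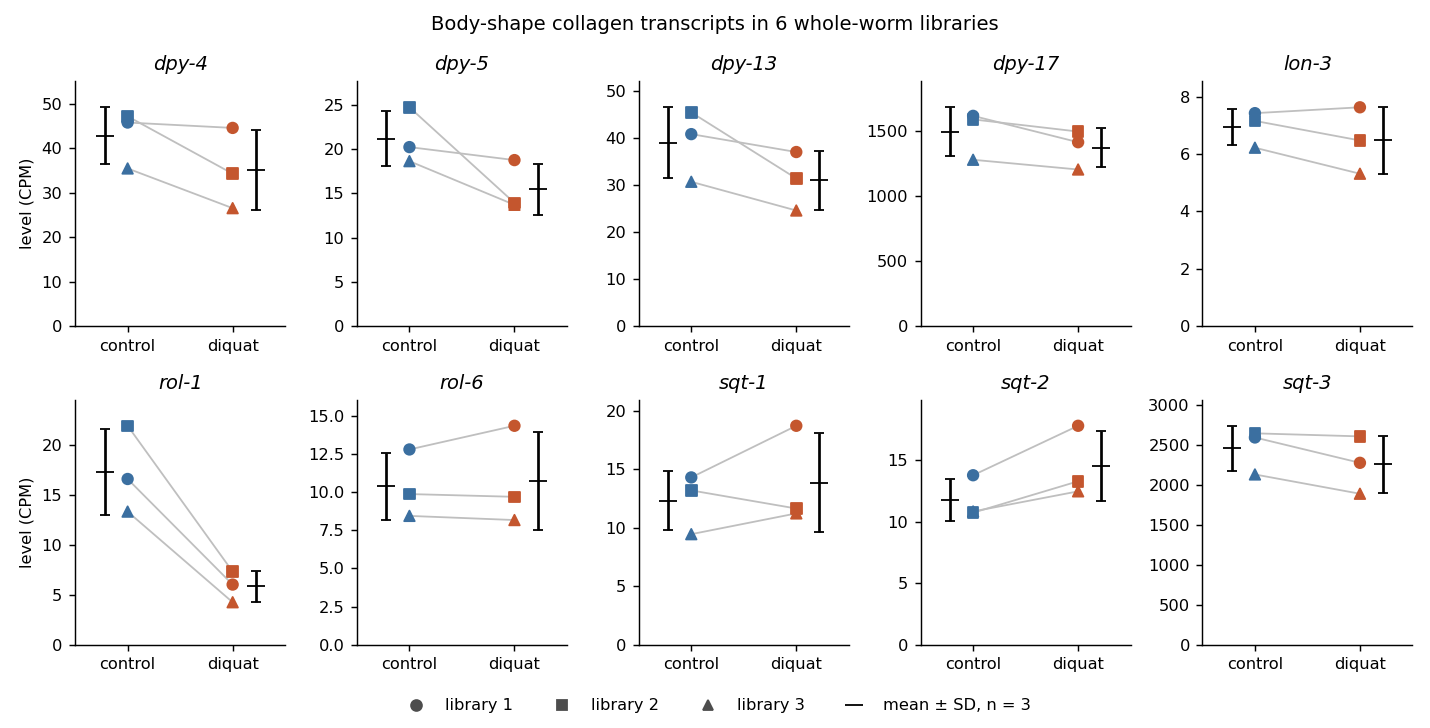
Level in CPM (vertical axes from 0, one scale per gene) of each collagen in the 3 control (blue) and 3 diquat (orange) libraries, with grey lines joining same-numbered libraries and black marks giving mean ± SD, n = 3. For rol-1 the diquat libraries lie at 4.23 to 7.30 CPM and the control libraries at 13.3 to 21.9 CPM, and for the other 9 genes the groups overlap.

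On the WBcel235 build, 4 of the 10 genes lie on chromosome II: sqt-2 at 23325 to 24458, rol-6 at 8733050 to 8734239, sqt-1 at 11336693 to 11337837 and rol-1 at 12172573 to 12176069. Chromosome IV carries dpy-13 (4235614 to 4236710) and dpy-4 (14985543 to 14986784), and chromosome V carries lon-3 (12197437 to 12198645) and sqt-3 (12352745 to 12354320). dpy-5 lies on chromosome I (5432197 to 5433051) and dpy-17 on chromosome III (5107330 to 5108492). The annotated proteins are 284 (DPY-5) to 458 (ROL-1) amino acids long. rol-1 also has the most exons in its longest coding transcript, 5, where the others have 1 to 3. dpy-4 lies within an intron of atln-2 and lon-3 within an intron of ogdh-2, both on the opposite strand, and neither shares exon bases with its host. The strand setting of the counting is not given, so unspliced reads of a host could be counted for them. The host ogdh-2 was at 46.0 to 63.4 CPM and atln-2 at 0.684 to 1.59 CPM, and neither host passed the test (log2 fold change 0.07 and 0.29, edgeR BH-adjusted p = 0.923 and 0.885). sqt-3 shares 144 exon bases with the noncoding gene F23H12.13 on the other strand.

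The levels of the 10 genes spanned a 337-fold range in mean FPKM over the 6 libraries. sqt-3 (2004 FPKM) and dpy-17 (1278 FPKM) stood far above the rest and were the second and the fifth highest of 157 tested genes annotated as structural constituents of the cuticle. Together they made up 95.7% to 97.0% of the counts of the 10 genes in a library. dpy-4 (38.6 FPKM), dpy-13 (35.1 FPKM) and dpy-5 (20.3 FPKM) followed, and sqt-2 (12.8), sqt-1 (12.5), rol-6 (9.71), rol-1 (7.73) and lon-3 (5.95 FPKM) were lowest. sqt-3 lay above dpy-17, dpy-17 above dpy-4 and dpy-13 above dpy-5 with no overlap of their ranges over the 6 libraries. The ranges of dpy-4 and dpy-13 overlapped although dpy-4 was higher in 6 of 6 libraries. From dpy-5 down to lon-3 each neighbour's range overlapped the next, with sqt-2 above sqt-1 in 3 of 6 libraries. The place of rol-1 by group mean differed between the groups. With a control mean of 11.5 FPKM it lay above sqt-2 (11.3) and rol-6 (9.41), whereas its diquat mean of 3.98 FPKM was the lowest of the 10. By library, rol-1 lay above sqt-2 in control 2 alone, and it lay below rol-6 in control 1. rol-1 lay above lon-3 in the 3 control libraries and below it in the 3 diquat libraries.

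rol-1, a gene whose mutants roll as adults, was at 16.56, 21.89 and 13.30 CPM in controls 1, 2 and 3 and at 5.998, 7.298 and 4.229 CPM in diquat libraries 1, 2 and 3. Every diquat library lay below every control library, and library 2 was highest and library 3 lowest in both groups. The mean fell from 17.3 ± 4.34 to 5.84 ± 1.54 CPM (SD, n = 3; log2 fold change -1.56, SE 0.23, 95% interval -2.06 to -1.07, edgeR BH-adjusted p = 0.00641), to 33.8% of control with an interval of 24.0% to 47.6%. Groups that do not overlap in this direction were found for 1 of the 10 genes and for 6.68% of all tested genes, and in the other direction for 0 of the 10 and for 4.07%. The level in the authors' deposited table went from a mean of 11.5 to 3.98 FPKM, with a log2 fold change of -1.53 and an FDR of 3.31e-08 in the authors' deposited table.

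The interval of rol-1 lay wholly below those of the other 9 genes, the lowest of which reached -0.82 (dpy-5). Within a library, the log2 CPM of rol-1 minus the median log2 CPM of the other 9 was -0.29, -0.17 and -0.48 in controls. With diquat it was -1.63, -0.92 and -1.68, so the groups did not overlap. In each library dpy-5 was that median gene, so this sets rol-1 against dpy-5, whose own log2 fold change was -0.45. Without diquat 1 rol-1 did not pass, at a log2 fold change of -1.58 and an edgeR BH-adjusted p of 0.0822. Over all genes that fit called 27 lower, against 121 with all libraries. Without each other library the adjusted p of rol-1 was 0.00207 to 0.0280. In bulk RNA of whole worms, fewer cells that express a gene and less RNA per cell cannot be told apart. Of 8 sperm marker genes, 7 were tested and 4 fell. The sperm markers gsp-4 and fer-1 had positive log2 fold changes (0.71 and 0.02) and did not pass. In the deposited table both symbols stand on assembled loci without an annotated position, whereas the other tested sperm markers are annotated genes. The summed level of the 8 was 45.0 to 52.4 CPM in control and 20.4 to 27.6 CPM with diquat, with none at 0 in every library. The summed level of 6 epidermal markers was 329 to 376 CPM in control and 352 to 396 CPM with diquat. The part of these levels in the fall of rol-1 was not tested.

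The dumpy collagens of intermediate level shared a pattern. dpy-5, whose mutants are short, had 20.2, 24.7 and 18.6 CPM in control and 18.7, 13.9 and 13.7 CPM with diquat. Diquat 1 lay just above the lowest control library, and the other 2 diquat libraries lay below all controls. The log2 fold change of dpy-5 was -0.45 (SE 0.17, 95% interval -0.82 to -0.09, edgeR BH-adjusted p = 0.538). With the replicate block dpy-5 fell at the same size (log2 fold change -0.45, 95% interval -0.69 to -0.22, blocked edgeR BH-adjusted p = 0.0111).

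dpy-13, a collagen needed for normal body length, had 40.803, 45.423 and 30.668 CPM in control and 36.996, 31.379 and 24.560 CPM with diquat. The groups overlapped because control 3 lay below diquat 1 and diquat 2. Its log2 fold change was -0.33 (95% interval -0.71 to 0.05, edgeR BH-adjusted p = 0.819), and it fell with the block (95% interval -0.51 to -0.15, blocked edgeR BH-adjusted p = 0.0167). dpy-4, another dumpy gene, had 45.8, 47.2 and 35.4 CPM in control and 44.5, 34.3 and 26.5 CPM with diquat. Here diquat 1 was close to controls 1 and 2, while diquat 2 and diquat 3 were below all controls. The log2 fold change of dpy-4 was -0.29 (95% interval -0.68 to 0.11, edgeR BH-adjusted p = 0.819), and dpy-4 fell with the block (log2 fold change -0.30, blocked edgeR BH-adjusted p = 0.0287).

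Some of these blocked calls were lost with 1 pair left out, which also leaves fewer libraries in the fit. Without pair 2 none of the 3 passed, with log2 fold changes of -0.26 for dpy-5, -0.22 for dpy-13 and -0.21 for dpy-4 (blocked edgeR BH-adjusted p = 0.284, 0.358 and 0.371). Without pair 1 dpy-13 did not pass at a log2 fold change of -0.43 (blocked edgeR BH-adjusted p = 0.0578). Without pair 3 dpy-5 and dpy-4 did not pass, at -0.46 and -0.24 (blocked edgeR BH-adjusted p = 0.0551 and 0.145). rol-1 kept its blocked call with each pair left out in turn (largest blocked edgeR BH-adjusted p = 4.55e-05).

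Markers of other tissues also moved with the block, where without it 0 of the muscle, intestine and yolk markers passed by edgeR, DESeq2 or limma-voom, and 2 yolk genes alone had an unadjusted edgeR p under 0.05. Of 4 body muscle markers 2 fell, unc-54 and unc-15 (log2 fold change -0.26 and -0.24, blocked edgeR BH-adjusted p = 0.00264 and 0.00435). The markers myo-3 and hlh-1 did not pass (blocked log2 fold change 0.05 and -0.08). Of 4 tested intestine markers 2 fell, vha-6 and act-5 (both -0.21, blocked edgeR BH-adjusted p = 0.0165 and 0.00982). The intestine markers elt-2 and ges-1 did not pass and lay on the other side of no change (blocked log2 fold change 0.07 and 0.05). Of 6 yolk protein genes 4 rose, by 0.19 (vit-5) to 0.49 (vit-1) on the log2 scale. The yolk genes vit-2 and vit-6, with the highest levels, did not (blocked log2 fold change -0.05 and -0.0066). With the length trend also removed, vit-1, vit-3 and vit-4 still rose and vit-5 did not pass (log2 fold change 0.07, edgeR BH-adjusted p = 0.491). In that fit vit-2 fell (log2 fold change -0.17, edgeR BH-adjusted p = 0.0229). The summed level of the muscle markers was 2961 to 3427 CPM in control and 2273 to 3310 CPM with diquat, that of the intestine markers 1545 to 1865 and 1238 to 1607 CPM, and that of the yolk genes 107330 to 154620 and 114610 to 157548 CPM, with none listed at 0 in every library. The part of these tissues in the blocked falls of the dumpy collagens was not tested.

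**Figure D2:**
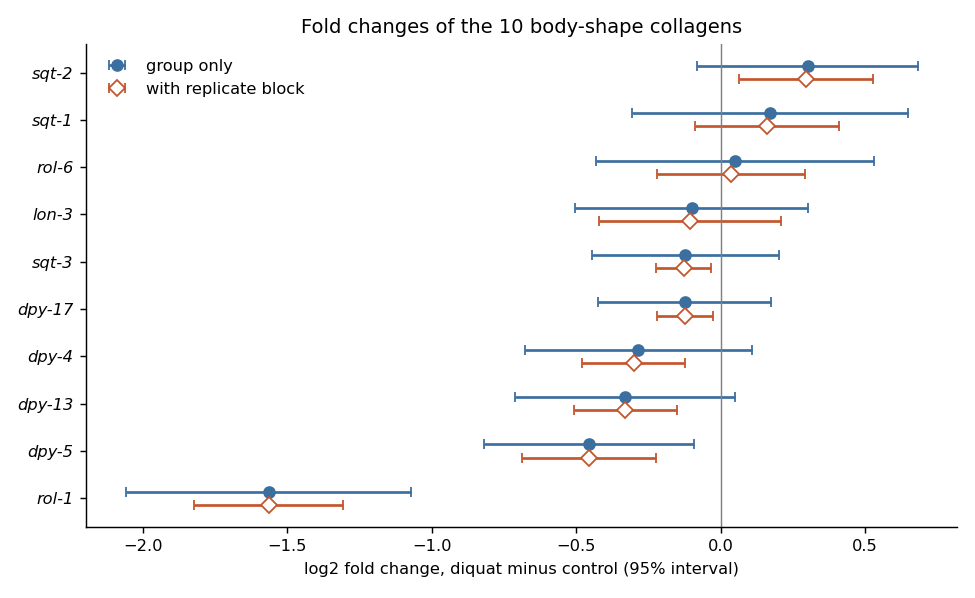
Log2 fold change of each collagen, diquat minus control (horizontal axis), with 95% intervals from edgeR with group only (filled circles) and with the replicate block (open diamonds). The interval of rol-1, -2.06 to -1.07, lies below those of the other 9. The blocked intervals of dpy-5, dpy-13, dpy-4, sqt-3 and dpy-17 lie below 0 as well, and that of sqt-2 lies above 0.

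sqt-3 and dpy-17 are a functionally linked pair: in worm genetics their products are tied to the astacin protease DPY-31, which trims cuticle procollagens. sqt-3 had 2588, 2640 and 2126 CPM in control and 2271, 2602 and 1885 CPM with diquat. dpy-17 had 1615, 1588 and 1277 CPM in control and 1412, 1494 and 1203 CPM with diquat. In both genes library 3 was lowest in each group and the groups overlapped. The log2 fold change was -0.12 for sqt-3 (95% interval -0.45 to 0.20, edgeR BH-adjusted p = 0.879) and -0.12 for dpy-17 (95% interval -0.42 to 0.17, edgeR BH-adjusted p = 0.863). With the block the intervals narrowed to -0.22 to -0.03 for both genes, and neither passed (blocked edgeR BH-adjusted p = 0.0847 for sqt-3 and 0.107 for dpy-17). dpy-17 passed in the blocked fit without pair 3 (adjusted p = 0.0447). At their depth, counting error was 0.424% (sqt-3) and 0.543% (dpy-17) of the mean count, so the spread between libraries sets the precision.

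rol-6 and sqt-1 are collagens that interact genetically, and a dominant rol-6 allele is a widely used marker of transgenic worms. rol-6 had 12.8, 9.90 and 8.46 CPM in control and 14.4, 9.71 and 8.19 CPM with diquat. Its levels differed more by library number than by group (log2 fold change 0.05, 95% interval -0.43 to 0.53, edgeR BH-adjusted p = 0.971). sqt-1 had 14.3, 13.2 and 9.44 CPM in control and 18.7, 11.6 and 11.2 CPM with diquat. Its higher diquat mean came with a single high library, diquat 1 (log2 fold change 0.17, 95% interval -0.31 to 0.65, edgeR BH-adjusted p = 0.885), and without that library the log2 fold change was -0.095. The sign for rol-6 also turned without diquat 1 (-0.21) and without control 3 (-0.066).

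sqt-2, a squat collagen, had 13.8, 10.7 and 10.8 CPM in control and 17.8, 13.3 and 12.5 CPM with diquat. Control 1 lay above diquat 2 and diquat 3, so the groups overlapped, yet each diquat library was above the control of the same number. The log2 fold change of sqt-2 was 0.30 (95% interval -0.08 to 0.68, edgeR BH-adjusted p = 0.819). With the block the interval was 0.06 to 0.53 and sqt-2 did not pass (blocked edgeR BH-adjusted p = 0.105). With the length trend removed as well sqt-2 passed (log2 fold change 0.33, edgeR BH-adjusted p = 0.0414). lon-3, whose loss makes worms long and whose excess makes them dumpy, had 7.43, 7.16 and 6.22 CPM in control and 7.63, 6.48 and 5.32 CPM with diquat. Diquat 1 was above all controls and diquat 3 below them (log2 fold change -0.10, 95% interval -0.50 to 0.30, edgeR BH-adjusted p = 0.923). Without diquat 3 the log2 fold change of lon-3 was 0.013. lon-3 had the lowest mean count of the 10 over the 6 libraries, at 137 to 183 per library, where counting error alone is 7.93% of the mean. In diquat 1 and diquat 3 rol-1 had fewer, at 143 and 109.

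Compared by library number, 6 of the 10 genes were lower with diquat in all 3 pairs (dpy-4, dpy-5, dpy-13, dpy-17, rol-1 and sqt-3) and 1, sqt-2, was higher in all 3, against 19.6% and 23.1% of all tested genes. The drop of rol-1 was nearly the same in each pair, at -1.47, -1.58 and -1.65 on the log2 CPM scale. The difference of dpy-5 ranged from -0.11 in pair 1 to -0.83 in pair 2, that of dpy-13 from -0.14 to -0.53 and that of dpy-4 from -0.04 to -0.46, with pair 1 the smallest and pair 2 the largest in each. sqt-1 was higher in pairs 1 and 3 (0.39 and 0.25) and lower in pair 2 (-0.18).

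**Figure D3:**
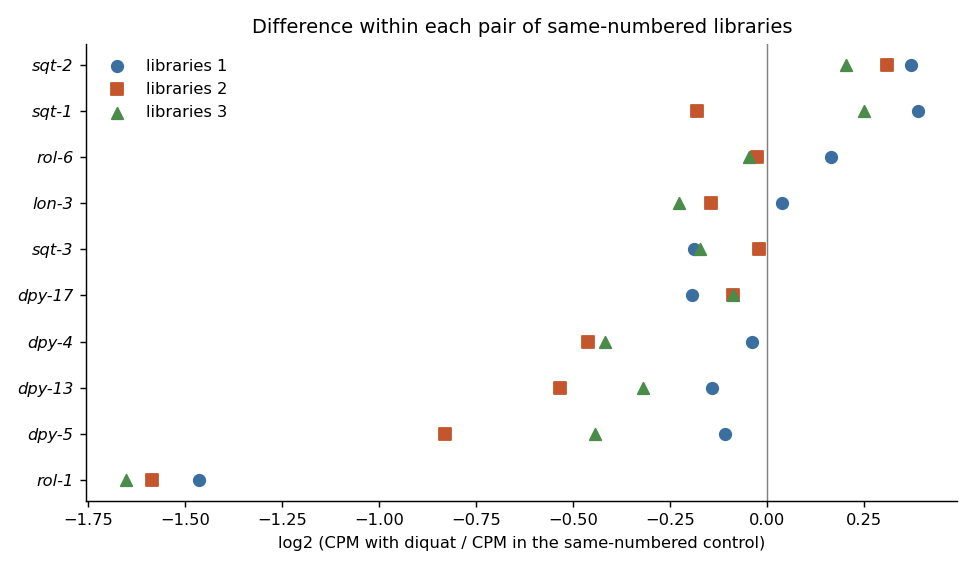
Log2 ratio of CPM with diquat to CPM in the control library of the same number (horizontal axis), with one symbol per pair of libraries. rol-1 lies at -1.65 to -1.47 in the 3 pairs, sqt-2 lies above 0 in all 3, and the pairs are most spread for dpy-5, from -0.83 to -0.11.

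The libraries differed in ways shared by most of these collagens. Diquat 3 was the lowest diquat library for 10 of the 10 genes, against 39.3% of all tested genes, and control 3 the lowest control library for 9, against 43.4%. Diquat 1 was the highest diquat library for 7 of the 10, against 25.02% of all tested genes, and control 1 the highest control library for 5, against 32.08%. The coefficient of variation between libraries was 9.13% to 25.1% in control and 10.98% to 30.4% with diquat, above the counting error of each gene.

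The balance within 3 functionally linked pairs was tested by an exact permutation test over the libraries (two-sided, smallest possible p 0.10, p-values adjusted over the 3 ratios). The log2 ratio of dpy-17 to sqt-3 was -0.68, -0.73 and -0.73 in control and -0.69, -0.80 and -0.65 with diquat, a difference of 0.0050 (exact permutation p = 1, adjusted p = 1). Control and diquat values of this ratio overlapped closely. For rol-6 to sqt-1 the log2 ratio was -0.16, -0.41 and -0.16 in control and -0.38, -0.26 and -0.45 with diquat, a difference of -0.12 (exact permutation p = 0.3, adjusted p = 0.75). For dpy-5 to dpy-13 it was -1.01, -0.88 and -0.72 in control and -0.98, -1.17 and -0.84 with diquat, a difference of -0.13 (exact permutation p = 0.5, adjusted p = 0.75). In all 3 ratios the groups overlapped.

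Set beside the rest of the cuticle, the 10 genes had a median log2 fold change of -0.12, where 147 other tested genes annotated to the cuticle had -0.52 and all tested genes 0.01. Of those 147, 41 fell (27.9%), and with the block 92 fell (62.6%), against 1 and 4 falls of the 10. In order of fold change among the 157 cuticle genes, rol-1 was the 14th lowest, dpy-5 the 79th and sqt-2 the 153rd. No test of this difference between lists was made.

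**Figure D4:**
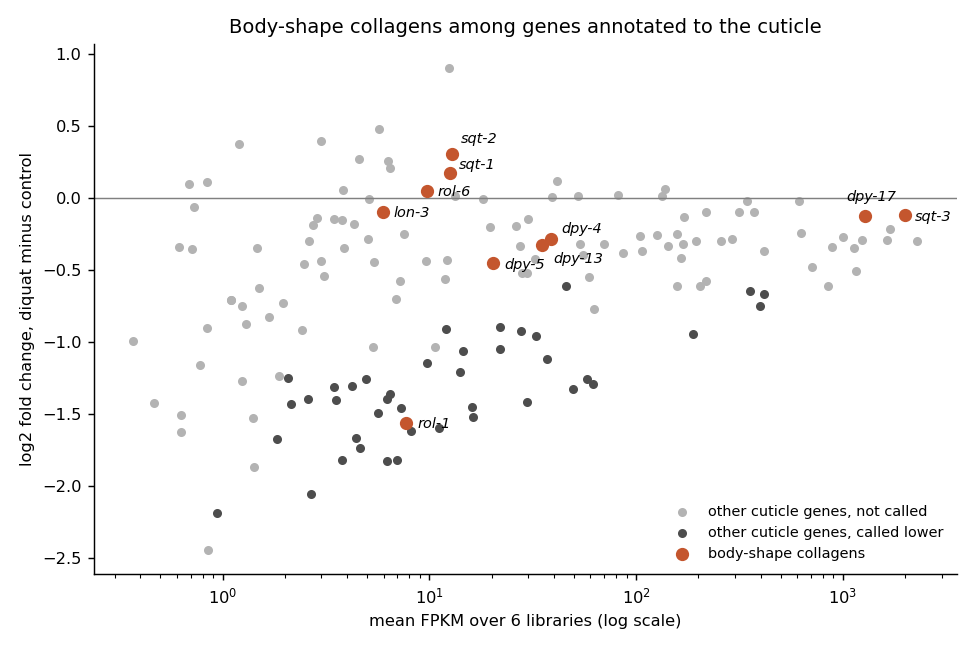
Log2 fold change, diquat minus control (vertical axis), against mean FPKM over the 6 libraries (horizontal log axis) for 157 tested genes annotated to the cuticle. rol-1 (-1.56) lies among the called falls, and the other 9 body-shape collagens lie at or above -0.45.

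Genes that act with these collagens were read from lists of related functions. The 6 furrow collagens had 0 genes past the test with or without the block, 0 at an unadjusted p under 0.05 and 0 by DESeq2, and a median log2 fold change of 0.09, with 0 of the 6 below 0, from 0.01 (dpy-3) to 0.25 (dpy-9). Of 8 strut and adult collagens, 4 fell and 7 fell with the block, with a median of -1.18. bli-6, a blister collagen, had 23.2, 30.1 and 21.9 CPM in control and 8.35, 10.3 and 7.60 CPM with diquat, with every diquat library below every control (log2 fold change -1.52, edgeR BH-adjusted p = 0.00290). col-63, bli-2 and col-7 fell as well (log2 fold change -1.82, -1.44 and -1.32, edgeR BH-adjusted p = 0.00211, 0.0290 and 0.0329). DESeq2 called 5 of the 8, these 4 and col-62 (DESeq2 BH-adjusted p = 0.00689), and limma-voom called 4. bli-1, col-62 and the adult collagen col-19 did not pass edgeR without the block and fell with it (log2 fold change -0.91, -1.01 and -0.49, blocked edgeR BH-adjusted p = 0.0165, 5.15e-04 and 1.10e-07). The other roller collagen of that list, rol-8, was at 16.2 to 22.8 CPM in control and 14.6 to 28.6 CPM with diquat (log2 fold change -0.01, edgeR BH-adjusted p = 0.996).

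Of 15 tested genes for collagen processing and crosslinking, 0 passed with or without the block or by DESeq2, and the median log2 fold change was -0.0020. At an unadjusted p under 0.05 edgeR had 1 of them higher, the tetraspanin gene tsp-21 (log2 fold change 0.36, BH-adjusted p = 0.796). dpy-31, which encodes the astacin linked to SQT-3 and DPY-17, was at 13.93 to 18.59 CPM in control and 14.002 to 18.27 CPM with diquat (log2 fold change -0.08, edgeR BH-adjusted p = 0.928). Of 16 genes of the DBL-1 pathway, the TGF-beta signal that sets body size, 0 passed by edgeR or DESeq2 and 1 fell with the block. This was lon-1, also the only 1 of the 16 at an unadjusted p under 0.05, and it acts downstream of DBL-1 (log2 fold change -0.27, blocked edgeR BH-adjusted p = 0.0131). The ligand gene dbl-1 was at 10.4 to 11.8 CPM in control and 6.87 to 10.2 CPM with diquat (log2 fold change -0.29, edgeR BH-adjusted p = 0.819). Of 14 epidermal and molting regulators 0 passed by edgeR or DESeq2 and 0 had an unadjusted p under 0.05, and with the block the transcription factor genes blmp-1 and myrf-1 rose (log2 fold change 0.29 and 0.27, blocked edgeR BH-adjusted p = 0.0449 and 0.0476), calls lost with the length trend also removed (0.197 and 0.247). In that fit grh-1, a Grainyhead transcription factor gene, fell (log2 fold change -0.27, edgeR BH-adjusted p = 0.0101).

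**Figure D5:**
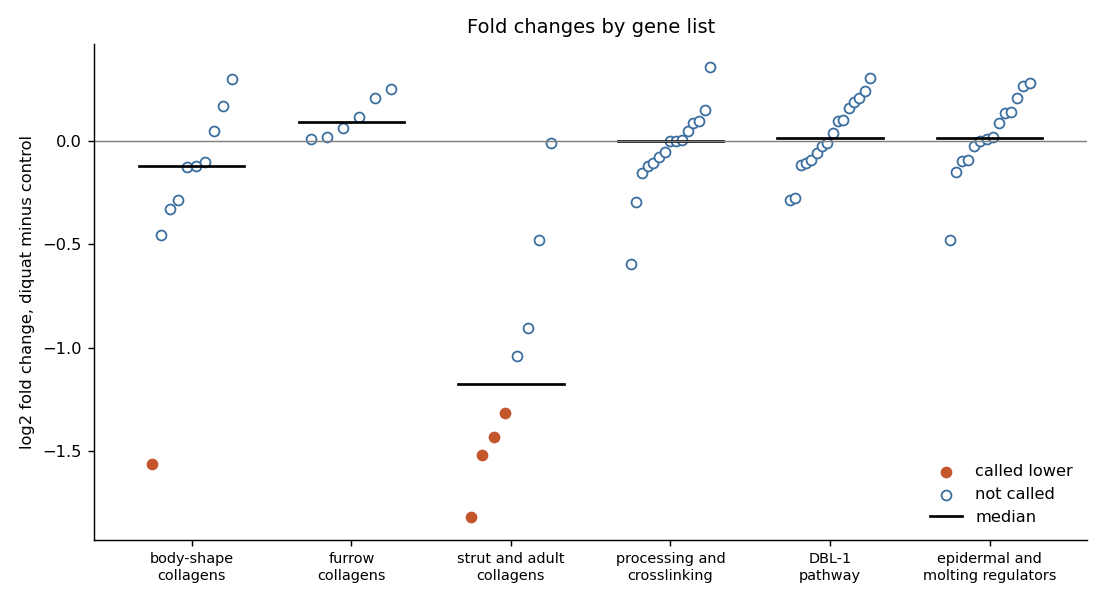
Log2 fold change, diquat minus control (vertical axis), of each tested gene in the body-shape collagens and 5 related lists, with called falls filled, other genes open and the list median as a line. The strut and adult collagens have a median of -1.18, the body-shape collagens -0.12 with rol-1 alone at -1.56, and the furrow collagens 0.09.

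Of 6020 named genes with a mean of at least 50 counts, those whose log2 CPM over the 6 libraries was most like that of rol-1 were best-17 (Pearson r = 0.998), ssq-2 (0.995) and the collagen gene col-146 (0.994). These r values describe 6 shared libraries that differ between groups, so any gene with a like difference scores high. best-17 belongs to the bestrophin family and ssq-2 to the sperm-specific class Q family. ssq-2 and col-146 fell (log2 fold change -1.32 and -1.15, edgeR BH-adjusted p = 0.00824 and 0.0180), whereas best-17 did not pass (log2 fold change -0.49, edgeR BH-adjusted p = 0.779). The protein-coding genes on either side of rol-1, Y57A10A.8 and Y57A10A.13, had log2 fold changes of 0.04 and 0.08 (edgeR BH-adjusted p = 0.965 and 0.903). Beside the other members no tested flanking gene passed, and with the block rmd-3, 613 bases from sqt-1, fell (log2 fold change -1.09, edgeR BH-adjusted p = 0.0904, blocked 0.0111).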

How the data were processed

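The members and lists were chosen with earlier results of these data known. RNA was oligo(dT)-selected, per the labels' protocols, and fastp 0.18.0, HISAT2, StringTie 1.3.1, RSEM and the build WBcel235 are listed, without their roles, in the submitters' processing notes. The deposited count per gene is whole. Since RSEM is named and 94 values pair a count of 0 with an FPKM above 0, these were treated as estimated counts rounded by the authors. FPKM, group means, the log2 fold change (the authors' ratio of mean FPKM) and the p-value and FDR were deposited by the authors, with the test not stated in the file headers.

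Counts were tested with edgeR 4.0.16 in R 4.3.3 (TMM, default expression filter, robust quasi-likelihood fit, group as the only term) over all 13252 genes passing the filter, including the 10 members, and p-values were Benjamini-Hochberg adjusted, with calls under 0.05. Standard errors were taken from the fold change and F statistic. Log2 CPM used a prior count of 2. A floor of 3 counts was 0.116 to 0.137 CPM. Positions came from the Ensembl release 115 annotation, which matched 20105 identifiers. Alternatives were DESeq2 1.42.0, limma-voom (limma 3.58.1), other size factors, no filter, each library left out, the replicate block and removal of each library's length trend (span 0.3). The fit was tested on simulated data.

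Deviations from the group mean correlated at 0.155, 0.200 and 0.459 between same-numbered libraries, all above 0.1, so the numbers were taken as pairs. The correlation of control 1 was higher with diquat 2 (0.208). The labels do not say what a number marks, so the pairing of libraries 1 and 2 rests on the shared numbers alone. Replicates differed beyond sampling noise (chi-square per degree of freedom 15.5 or more). Named genes were all 10 members, the 3 genes most like each member past the threshold, and genes of the related lists past the threshold with or without the block. dbl-1, dpy-3, dpy-9, dpy-31, grh-1, rol-8, tsp-21 and the genes beside or around a member were named outside this rule, after their values were seen. So were the tissue markers that did not pass.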

Additional observations from a re-analysis of the deposited data

How the results depend on the processing

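Of 160 alternative values for the 10 fold changes, 143 kept their direction and their side of the threshold, 11 newly passed, 1 no longer passed and 5 changed sign. All 11 that newly passed came from fits with the replicate block. The 1 lost call was rol-1 without diquat 1. The sign changed for rol-6 (-0.066 and -0.21 without control 3 and diquat 1, range -0.21 to 0.23, and -0.040 in the blocked fit without pair 1), for sqt-1 (-0.095 without diquat 1, range -0.095 to 0.30) and for lon-3 (0.013 without diquat 3, range -0.23 to 0.013), each range being over single libraries left out. Over the same settings the log2 fold change was -1.75 to -1.36 for rol-1, -0.61 to -0.33 for dpy-5, -0.47 to -0.20 for dpy-13, -0.49 to -0.13 for dpy-4, -0.21 to -0.052 for dpy-17, -0.24 to -0.022 for sqt-3 and 0.14 to 0.43 for sqt-2. The count of the 10 genes called lower was 4 with the replicate block, 4 in the blocked and length-corrected fit, 0 to 1 with a library left out and 1 to 3 with the block and a pair left out, an alternative chosen after seeing the data. The count called higher was 1 in the blocked and length-corrected fit. Over all genes, 530 were called lower and 598 higher with the replicate block, and 822 and 451 when length was corrected too. The count higher was 2 with no expression filter and 1 with the length trend removed. With a library left out 27 to 116 genes were lower and 0 to 1 higher, and with the block and a pair left out 181, 333 and 482 were lower and 15, 329 and 436 higher (pairs 1, 2 and 3). The difference in the log2 ratio of dpy-17 to sqt-3 ranged from -0.027 to 0.049 with a library left out, with negative values without control 2, control 3, diquat 1 or diquat 3 (-0.0036, -0.0042, -0.0079 and -0.027). The causes were not tested. The 3 libraries per group limit each interval.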
